A study of Mus musculus with 9 samples.

Results

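The genes described here encode 8 proteins of the dystrophin complex and its close relatives: Dmd, Utrn, Dag1, Sgca, Sgcb, Sgcd, Sspn and Dtna. They were taken by name, 8 of the 21938 protein-coding genes of GENCODE M21, each with its gene body and 10 kb on either side on the mouse build mm10. MyoD1, the basic helix-loop-helix factor that drives the muscle program, was mapped by CUT and RUN, in which an antibody against the protein recruits a nuclease and the short DNA fragments it releases are sequenced. A peak is an interval that the caller separated from the surrounding signal, and peaks of the 6 libraries that overlapped or touched were merged into 1 region. Of 116126 peaks, 82 lay at the 8 genes, and of 58309 merged regions, 34 did.

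All 6 libraries came from C2C12, a mouse myoblast line, that carried Flag-Halo tagged MyoD1 at the endogenous locus and a further Flag-Halo tagged MyoD1 copy under a doxycycline-inducible promoter, and the anti-Flag antibody therefore reads both. The edited line was isolated as a clone, so the replicates share its genome. Differentiation was started by serum withdrawal, in 3 cultures without doxycycline (no dox, binding at endogenous MyoD1 levels) and in 3 cultures given doxycycline for 6 h (+dox, binding at raised levels), and the comparison asks how the bound sites differ. Libraries from 3 wild-type cultures were not analysed here, so no background from untagged cells stands beside the values. Peak lists measure no RNA, so the myoblast label could not be checked against marker expression.

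The dystrophin complex ties the actin cytoskeleton of a muscle fiber to the extracellular matrix and protects the membrane during contraction. Dystrophin (Dmd) binds actin on the inside and the membrane protein dystroglycan (Dag1) at its other end, and dystroglycan binds laminin outside the cell. The sarcoglycans (Sgca, Sgcb and Sgcd) and sarcospan (Sspn) form a subcomplex in the membrane beside dystroglycan, alpha-dystrobrevin (Dtna) joins on the cytoplasmic side, and utrophin (Utrn) is the homolog of dystrophin that is found at the neuromuscular junction and in immature fibers. Loss of several of these genes causes muscular dystrophy.

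Binding at these genes was uneven. Utrn, Dag1 and Sgca each held sites that were called in all 6 libraries, Sgcb and Sspn each held 1 site called in 5 of 6, and Sgcd, Dtna and Dmd held no site called in more than 1 library of a group. The site with the highest mean rank of those called in all 6 lay in intron 1 of Utrn, closely followed by the Utrn promoter. No region at the 8 genes was called in all 3 libraries of 1 group and in none of the other. None of the 4 regions called everywhere passed the test for a difference in signal between groups. Once same-numbered libraries were paired, the Utrn and Dag1 promoters passed it, both higher with dox. So did 53.5% of all regions called in 6 libraries, 2586 of them higher with dox and 3 lower.

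The sequences that carry the shared sites are shown first. CAGCTG, in capitals, is the E-box that MyoD1 prefers, and it is a palindrome, so that it reads alike on both strands. The 30 bases around the CAGCTG nearest the signal maximum are given for the 8 regions called in at least 5 of 6 libraries, from the plus strand of GRCm38, the assembly behind mm10.
Utrn intron 1 region (chr10:12821281-12821310): acccagccctatCAGCTGccccgtccaaaa
Utrn promoter region (chr10:12868179-12868208): tctgtctctccaCAGCTGcaggcttgccac
Dag1 promoter region (chr9:108264199-108264228): caagccaccacaCAGCTGccccctaatttc
Dag1 downstream region (chr9:108201471-108201500): tttggggctagtCAGCTGgggcttccttgg
Sgca downstream region (chr11:94958005-94958034): gggggctggaaaCAGCTGcctactctgtga
Sgca intron 1 region (chr11:94973515-94973544): ggtgtggcagacCAGCTGgggccagccttg
Sgcb promoter region (chr5:73647305-73647334): cacgccaggcaaCAGCTGaccaccacttgg
Sspn promoter region (chr6:145934258-145934287): ctggcactgctgCAGCTGgcgttgggcatc

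The distance from the maximum to the nearest CAGCTG differed widely among them. It was 3 bp at the Sspn promoter, 4 bp in Sgca intron 1, 32 bp at the Utrn promoter and 80 bp in Utrn intron 1. The maximum is the midpoint of the interval of highest signal, in the list where the region had its highest percentile. Peak ends lay on a 50 bp grid, so distances of a few bp are not resolved. At the other 4 regions the motif lay away from the maximum, by 156 bp at the Sgcb promoter and downstream of Sgca, 160 bp downstream of Dag1 and 263 bp at the Dag1 promoter. Of the 13 member regions called in at least 2 lists, 5 held CAGCTG within 100 bp of the maximum, beside 37.3% of all 18773 regions called that often, and 12 of the 13 held it somewhere in the region, beside 72.6%. The windows are alike in width, whereas whole regions are not (median 1300 bp for the 13 and 1350 bp for all). Over all 34 member regions, the windows around the maximum held CAGCTG in 9 (30.1% of all regions), any CANNTG in 24 (74.6%, CAGCTG included), CAGGTG on either strand in 7 (21.3%), TGANTCA, the AP-1 site, in 3 (12.8%) and CATTCC, the TEAD site, on either strand in 5 (12.7%).

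For the Utrn intron and Sgca downstream regions the 200 bp around the maximum are shown, since they are the 2 regions called in all 6 libraries with a maximum outside annotated exons, and they differ in the motif.
Utrn intron 1 region, 200 bp (chr10:12821276-12821475): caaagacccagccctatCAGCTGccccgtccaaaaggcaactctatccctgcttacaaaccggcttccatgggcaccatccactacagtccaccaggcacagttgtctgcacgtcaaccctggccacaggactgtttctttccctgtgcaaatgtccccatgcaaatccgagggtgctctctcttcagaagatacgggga
Sgca downstream region, 200 bp (chr11:94958076-94958275): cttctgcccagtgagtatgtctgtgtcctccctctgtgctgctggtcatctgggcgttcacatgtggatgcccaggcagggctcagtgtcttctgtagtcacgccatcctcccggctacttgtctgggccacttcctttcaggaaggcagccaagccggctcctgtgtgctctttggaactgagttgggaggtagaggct
The Utrn window held 1 CAGCTG and the Sgca window none, and each held 3 E-boxes of the general form CANNTG, a count that takes in the preferred one. In windows of the same length, 48.3% of the 4838 regions called in all 6 lists held CAGCTG and 77.3% held CANNTG.

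The libraries differed in length more within the +dox group than between groups, and this bears on every count at these genes. No dox replicates held 9389 to 13877 peaks at 4297000 to 4667000 alignments, +dox replicates 1 and 2 held 12536 and 13260 peaks at 2868000 and 3597000 alignments, and +dox replicate 3 held 53661 peaks at 8030000 alignments. The replicates numbered 3 were each closest to the other. Over the 4838 regions called in all 6 lists, log2 maximum signal had a Pearson r of 0.843 between no dox 3 and +dox 3. With +dox 3, r was 0.733 for no dox 1, 0.779 for no dox 2, 0.713 for +dox 2 and 0.451 for +dox 1. The lowest r of all pairs was 0.373, between no dox 3 and +dox 1, the shallowest library. These are correlations across regions, which are not independent replicates. Values without 1 or both of the replicates numbered 3 are given beside the peak totals, the consensus counts and the signal tests.

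Peaks at the 8 genes numbered 8, 10 and 8 in no dox replicates 1, 2 and 3, and 10, 13 and 33 in +dox replicates 1, 2 and 3. +dox replicate 3 thus held 33 of the 82 peaks, and the other 5 libraries were alike. Divided by list length, there were 8.52, 7.21 and 5.97 peaks per 10000 without dox and 7.98, 9.8 and 6.15 with dox, so the groups overlapped and the longest list had the lowest +dox value. The means were 7.23 ± 1.28 and 7.98 ± 1.83 (SD, n = 3 each), and the difference of 0.745 was smaller than either SD. It was 1.66 without +dox replicate 3, 1.03 without both replicates numbered 3, and -0.168 without +dox replicate 2. Peaks were found at 5 of the 8 genes in each no dox library and at 5, 6 and 8 in the +dox replicates. Across all protein-coding genes a peak was found at 35.7% to 45.3% in the no dox libraries and at 46.1%, 45.2% and 69.1% in the +dox ones.

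**Figure D1:**
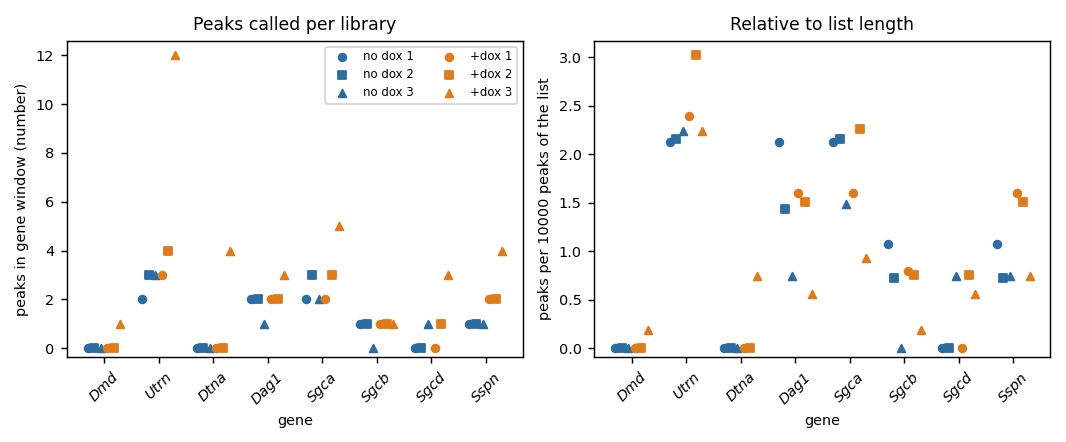
Peaks called in each gene window (gene body and 10 kb on either side), as a number at left and per 10000 peaks of the list at right, with 1 point per library, no dox in blue and +dox in orange, and the marker shape giving the replicate. Utrn had 12 peaks in +dox replicate 3 against 2 to 4 in the other libraries, but 2.24 per 10000 peaks there against 2.13 to 3.02 elsewhere.

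Most of the regions rested on 1 library. Of the 34 regions, 20 were called in +dox replicate 3 alone, beside 59.2% of all 58309 regions. These 20 reached 6 to 40 alignments at their maximum (0.747 to 4.98 CPM, alignments scaled to library size) and lay between percentiles 4.9 and 84.0 of that list (median 44.8), where the percentile ranks a peak's maximum signal among all peaks of the list. The member regions called in at least 2 lists lay between percentiles 54.0 and 99.7 of the same list, a range that overlaps the first. A call in a further list can itself select stronger peaks, so no conclusion is drawn from the 2 ranges. One region, at the annotated start of Sgcd, was called in +dox replicate 2 alone, at percentile 0.332 of that list. Regions called in all 6 lists numbered 4 of 34, beside 8.3% of all regions. 0 of 34 were called in 3 +dox and 0 no dox libraries, beside 1.09% of all regions, and 0 of 34 in the converse, beside 0.00858%.

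**Figure D2:**
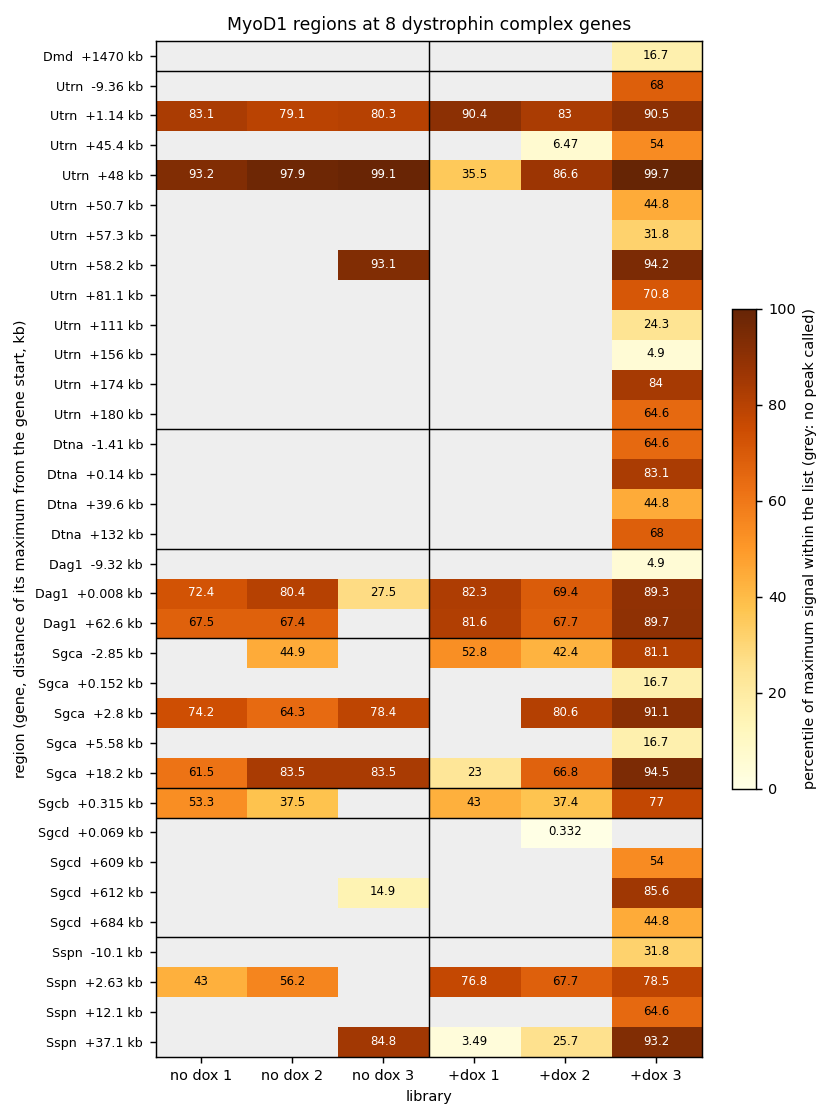
Percentile of maximum signal within each library's own peak list (color and number) for the 34 regions at the 8 genes, with libraries as columns, grey where no peak was called, and the distance of the maximum from the gene start in kb at left (positive into the gene). The filled rows are at Utrn, Dag1, Sgca, Sgcb and Sspn, and the Dmd and Dtna rows are filled in +dox replicate 3 alone.

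The consensus rule of the study keeps a region found in at least 2 of 3 libraries of a group. By it the 8 genes held 8 no dox regions and 11 +dox regions, spread in both groups over the same 5 genes, Utrn, Dag1, Sgca, Sgcb and Sspn. Over all protein-coding genes, 35.5% held a no dox consensus region and 48.4% a +dox one. All 8 no dox regions overlapped a +dox region, so 0 of 8 were particular to no dox by this rule, beside 10% of 9560. The 3 +dox regions that overlapped no such no dox region lay at Utrn, Sgca and Sspn, 3 of 11 beside 38.5% of 13908, and 3 of 8 genes held one, beside 25.6% of protein-coding genes. Each of the 3 had its highest percentile in +dox replicate 3, the longest list. In CPM this held at Sspn but not at Utrn or Sgca. Of the 3, 2 had a call in 1 no dox library too. With each list shortened to the length of the shortest, 1 of these regions was left. Without no dox replicate 1, or without no dox replicate 2, there were 6, and without no dox replicate 3 there were 3. In each of these cases both remaining no dox libraries had to agree. There were 2 without +dox replicate 3, and 2 without both replicates numbered 3, where 1 no dox region lay outside the +dox consensus.

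Dystroglycan is the receptor that links dystrophin to laminin. Dag1 (chr9:108204634-108263958, minus strand) held 3 regions. The Dag1 promoter region (chr9:108263151-108264450) covered the first exon, with its maximum 8 bp from the nearest annotated Dag1 start. It was called in all 6 libraries, at percentiles 72.4, 80.4 and 27.5 in no dox replicates 1, 2 and 3 and 82.3, 69.4 and 89.3 in +dox replicates 1, 2 and 3. The groups overlapped, and no dox replicate 3 was by far the lowest. Maximum signal was 8.38, 9.48 and 2.14 CPM without dox and 23.0, 11.1 and 7.22 CPM with dox. On that scale the groups overlapped as well, through +dox replicate 3. The difference in log2 maximum signal, +dox minus no dox, was 1.15 (SE 0.64, 95% interval -0.17 to 2.47, limma adjusted p = 0.225 over 4838 regions). It was 0.46 without no dox replicate 3, 0.69 without +dox replicate 1, 0.84 without both replicates numbered 3 and 1.53 without +dox replicate 3. With the replicate number as a block the same difference passed the test (limma adjusted p = 0.0118), as did 53.5% of all the regions tested.

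The second Dag1 region (chr9:108201051-108201700) lay in intergenic sequence 62.6 kb from the start, just past the 3′ end of the gene, and 10.9 kb from the start of Bsn, the nearest coding gene start. It was called in 5 libraries, at percentiles 67.5 and 67.4 in no dox replicates 1 and 2, and 81.6, 67.7 and 89.7 in the +dox replicates. All 3 +dox values were above both no dox values, although +dox replicate 2 was so by a narrow margin, and no dox replicate 3 had no peak there. A further region, 9.32 kb upstream, was called in +dox replicate 3 alone at percentile 4.9. Dag1 peaks per 10000 were 1.44 ± 0.692 without dox and 1.22 ± 0.575 with dox (SD, n = 3 each), a difference within the spread (exact two-sided permutation p = 0.7, and adjusted over 15749 genes p = 1).

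Alpha-sarcoglycan (Sgca) is a sarcoglycan made in skeletal and cardiac muscle. The Sgca gene (chr11:94962791-94976327, minus strand) is 13.5 kb long and held 5 regions, of which 3 were in the +dox consensus. The intron 1 region (chr11:94972201-94974200) had its maximum 36 bp from the start of a shorter Sgca transcript and 2.8 kb from the gene start. Its percentiles were 74.2, 64.3 and 78.4 in the no dox replicates and 80.6 and 91.1 in +dox replicates 2 and 3, and +dox replicate 1, the shallowest library, had no peak there. In the libraries that called it the +dox percentiles were both above the no dox ones. In CPM the order did not hold, with 8.84, 5.87 and 6.0 without dox against 16.1 and 8.47 with dox.

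The Sgca downstream region (chr11:94957351-94959300) lay in intergenic sequence 18.2 kb from the Sgca start, 603 bp from the start of the noncoding gene Gm24877 and 9.42 kb from that of Hils1, so its assignment to Sgca rests on the 10 kb flank. It was called in all 6 libraries, at percentiles 61.5, 83.5 and 83.5 without dox and 23.0, 66.8 and 94.5 with dox. The +dox values ran from the lowest of the 6 to the highest. Maximum signal was 6.52, 10.8 and 7.29 CPM without dox and 4.88, 10.3 and 12.5 CPM with dox, a log2 difference of 0.09 (SE 0.57, 95% interval -1.08 to 1.26, limma adjusted p = 0.898) whose sign turned under several alternatives. The region 2.85 kb upstream of the gene start (chr11:94978801-94979800) was in the +dox consensus only, at percentiles 52.8, 42.4 and 81.1 with dox and 44.9 in no dox replicate 2. The no dox value thus lay within the +dox range. Sgca peaks per 10000 were 1.93 ± 0.378 and 1.6 ± 0.665 (SD, n = 3 each; exact two-sided permutation p = 0.7, adjusted p = 1).

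Beta-sarcoglycan (Sgcb) forms the core of the sarcoglycan subcomplex with delta-sarcoglycan. The Sgcb gene (chr5:73632749-73647790, minus strand) held 1 region (chr5:73647051-73648050), at its promoter, 315 bp into the gene and within 1 kb of the start of the neighboring noncoding gene Gm43799. Percentiles were 53.3 and 37.5 in no dox replicates 1 and 2 and 43.0, 37.4 and 77.0 in the +dox replicates, with no peak in no dox replicate 3. The groups overlapped, and the +dox replicate 3 percentile was the highest. In CPM that library was the lowest, with 5.58 and 3.61 without dox and 7.32, 5.56 and 3.49 with dox. Delta-sarcoglycan (Sgcd, chr11:46896253-47988969, minus strand) spans 1090 kb and had no consensus region in either group. Its region with the most calls (chr11:47376501-47378300, intron 1 of Sgcd-201) was found in no dox replicate 3 at percentile 14.9 and in +dox replicate 3 at percentile 85.6. The remaining 3 Sgcd regions each had a call in 1 library. The exact two-sided permutation p for peaks per 10000 was 1 for Sgcb and 0.7 for Sgcd (adjusted p = 1 for both).

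Sarcospan is a small membrane protein bound to the sarcoglycans. Sspn (chr6:145931641-145965223, plus strand) held 4 regions. The region over exon 1 of Sspn-201 (chr6:145933901-145935100) had its maximum in coding sequence, 153 bp from the start of that transcript. Its percentiles were 43.0 and 56.2 in no dox replicates 1 and 2 and 76.8, 67.7 and 78.5 in the +dox replicates, so each +dox value was above each no dox value, and no dox replicate 3 had no peak. In CPM the order did not hold, with 4.65 and 4.97 without dox against 18.1, 10.6 and 3.74 with dox. A downstream region (chr6:145967751-145969400), 37.1 kb from the start, was called in the replicates numbered 3 at percentiles 84.8 without dox and 93.2 with dox, and in +dox replicates 1 and 2 at 3.49 and 25.7. Its percentiles were highest in the replicates numbered 3, and no dox replicates 1 and 2 had no peak there. Whether its level goes with the replicate or the treatment was not tested. Sspn peaks per 10000 were 1.07, 0.721 and 0.746 without dox and 1.6, 1.51 and 0.745 with dox. The +dox replicates 1 and 2 were the highest, but replicate 3 lay inside the no dox range (exact two-sided permutation p = 0.3, adjusted p = 1).

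Utrophin was the gene with the most MyoD1 regions of the 8. Utrn (chr10:12382188-12869365, minus strand) held 12, of which 11 lay in the first 180.0 kb of the gene or at its start and 1 lay 9.36 kb upstream. The remainder of the 487 kb gene held none. With its flanks, Utrn had 23.7 regions per Mb, near the 23.3 per Mb of autosomes. Sgca (149), Sspn (74.7), Dag1 (37.8) and Sgcb (28.5) had more per Mb, and Dtna, Sgcd and Dmd had fewer. At the Utrn promoter (chr10:12867301-12870200) the maximum lay 46 bp from the start of Utrn-208, and percentiles were 83.1, 79.1 and 80.3 without dox and 90.4, 83.0 and 90.5 with dox. The values were steady over libraries, and +dox replicate 2 lay at the level of no dox replicate 1. Maximum signal was 12.1, 9.03 and 6.43 CPM without dox and 35.6, 17.8 and 7.97 CPM with dox. The groups overlapped through +dox replicate 3, and the log2 difference was 0.95 (SE 0.60, 95% interval -0.30 to 2.19, limma adjusted p = 0.26). It was 0.42 without +dox replicate 1, 1.5 without +dox replicate 3, 1.27 without both replicates numbered 3 and 0.51 in total signal. With the replicate block it passed the test (limma adjusted p = 0.0342).

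The Utrn intron 1 region (chr10:12820651-12821950) lay 48.0 kb into the gene, in intron 1 of the 74-exon transcript Utrn-201 and 5.56 kb from the nearest annotated Utrn start, that of Utrn-207. Its percentiles were 93.2, 97.9 and 99.1 in the no dox replicates and 35.5, 86.6 and 99.7 in the +dox replicates. It stood at rank 122 of 13403 peaks in no dox replicate 3 and at rank 157 of 53661 in +dox replicate 3, but at rank 7772 of 12536 in +dox replicate 1. Maximum signal was 21.4, 42.4 and 34.7 CPM without dox and 6.28, 21.7 and 65.8 CPM with dox. The +dox libraries spanned the whole range, from the lowest value to the highest. The log2 difference was -0.61 (SE 0.68, 95% interval -2.02 to 0.80, limma adjusted p = 0.483). Without +dox replicate 3 it was -1.44 (limma adjusted p = 0.0379) and without +dox replicate 1 it was 0.26 (limma adjusted p = 0.769), so a single library set its sign.

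**Figure D3:**
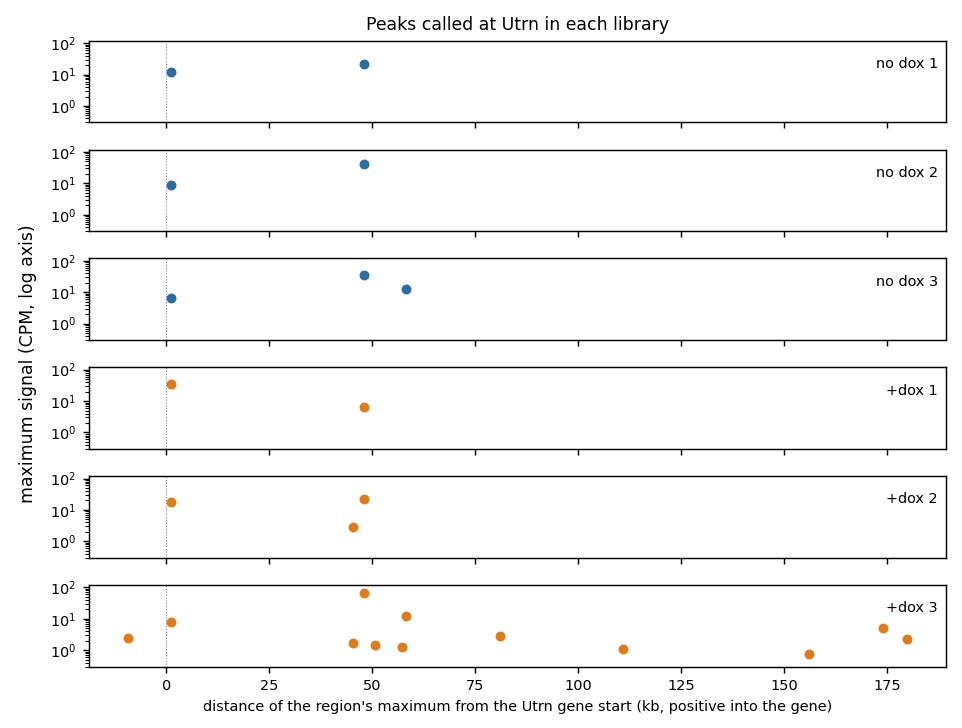
Maximum signal (CPM, log axis) of the peaks called at Utrn in each of the 6 libraries against the distance of the region's maximum from the gene start in kb (positive into the gene, dotted line at the start). The promoter and the site at 48.0 kb have a point in every panel, and most further points are in +dox replicate 3 alone.

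The other Utrn regions were called less often. A region at 58.2 kb, also in intron 1 (chr10:12810301-12811600), was found in the replicates numbered 3 alone, at the high percentiles of 93.1 without dox and 94.2 with dox and at 12.4 and 12 CPM. It was not called in the other 4 libraries. The Utrn region of the +dox consensus that had no no dox counterpart (chr10:12822201-12824300) lay at 45.4 kb and was weak, at percentiles 6.47 and 54.0 in +dox replicates 2 and 3 and at 2.78 and 1.74 CPM. Utrn peaks per 10000 were 2.13, 2.16 and 2.24 without dox and 2.39, 3.02 and 2.24 with dox. The +dox values of replicates 1 and 2 were above all no dox values, and that of replicate 3 was level with the highest (exact two-sided permutation p = 0.2, and adjusted over 15749 genes p = 1).

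Dystrophin itself had 1 peak. Dmd (chrX:82948870-85206141, plus strand) is 2260 kb long, and its region (chrX:84415851-84416550) lay in intron 48 of the 79-exon transcript Dmd-203, was called in +dox replicate 3 alone at percentile 16.7, and reached 8 alignments at its maximum. No peak was called at the annotated Dmd promoters. At 0.439 regions per Mb, Dmd was low beside a median of 2.0 over the 59 protein-coding genes with windows of at least 1 Mb, of which 13 were at or below it and 12 held no region. Sgcd, at 3.59 regions per Mb, was above that median, and 42 of the 59 were at or below it. Dmd is on the X chromosome, where regions were sparser as a whole (5.56 per Mb against 23.3 per Mb on autosomes); whether this bears on the Dmd value was not tested. Dtna, the gene of alpha-dystrobrevin on chromosome 18, held 4 regions, called in +dox replicate 3 alone at percentiles 64.6, 83.1, 44.8 and 68.0. The second of these lay at the promoter, 140 bp from the start, and reached 38 alignments. In 3 of the 4 Dtna regions CAGCTG lay within 8 bp of the midpoint of the maximum, finer than the 50 bp grid resolves. The Dmd region held no CAGCTG. Of the 20 regions called in +dox replicate 3 alone at the 8 genes, 4 held CAGCTG within 100 bp of the maximum, beside 28.0% of all regions called in that library alone. For both genes the exact two-sided permutation p was 1.

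**Figure D4:**
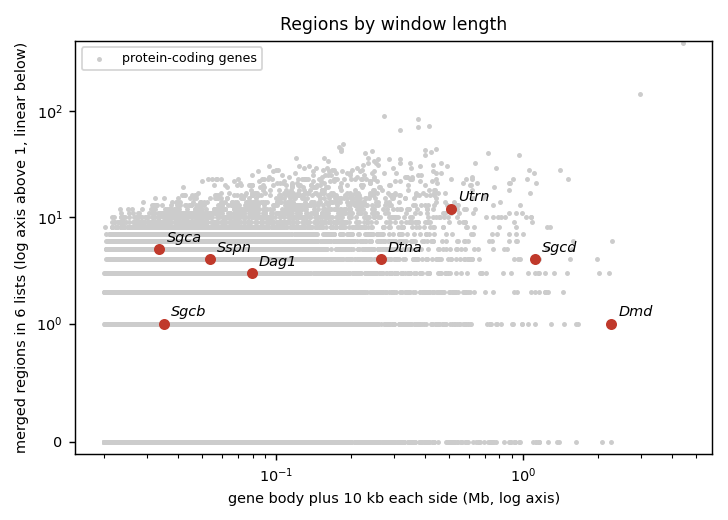
Number of merged regions in the 6 lists (log axis above 1, linear below) against the length of the gene window in Mb (log axis) for all protein-coding genes in grey and the 8 genes in red. Dmd, at 2.28 Mb with 1 region, sits at the lower right, and Sgca, at 0.0335 Mb with 5, at the upper left of the 8.

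Signal could be compared without filling in missing values at the 4 regions called in all 6 lists. In the limma test on log2 maximum signal, 0 of the 4 differed between groups at an adjusted p under 0.05, and 0 of 4838 regions did (0%, lowest adjusted p = 0.203). At an unadjusted p under 0.05, 1173 of the 4838 and 0 of the 4 passed. Almost all regions shared a shift: the median log2 difference was 0.91, with 96.11% of regions higher with dox, and the median maximum over these regions was 7.91, 9.48 and 5.57 CPM without dox and 17.4, 15.0 and 11 CPM with dox. CPM carries no spike-in scale, so the shift says nothing about absolute binding. Relative to it, with each library centred on its median, the differences were 0.02 at the Utrn promoter, 0.22 at the Dag1 promoter, -0.83 downstream of Sgca and -1.53 in Utrn intron 1, with none past the test (lowest limma adjusted p of the 4, 0.983). Single libraries moved the values of the last 2 by over 1.5 times. Utrn intron 1 was at -0.52 without +dox replicate 1 and at -2.55 without +dox replicate 3, and the Sgca downstream region at -0.28 and -1.29. The centred values of both promoters changed sign. The Utrn promoter ran from -0.36 (without +dox replicate 1) to 0.39 (without +dox replicate 3). The Dag1 promoter ran from -0.25 (without no dox replicate 3) to 0.48 (without no dox replicate 1).

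The calls depended on the replicates. With the replicate block, 2 of the 4 regions passed, the Utrn and Dag1 promoters, beside 53.5% of all 4838, of which 2586 were higher with dox and 3 lower. Without +dox replicate 3, 3 of 4 passed, beside 40.5%. The Utrn promoter at 1.5 and the Dag1 promoter at 1.53 were higher with dox, as were 40.4% of all regions, and Utrn intron 1 at -1.44 was lower, as were 0.103%. After leaving out both replicates numbered 3, 2 of 4 passed, the Utrn promoter at 1.27, beside 35.1% of all regions called higher, and Utrn intron 1 at -1.37, beside 0.248% called lower. With each library centred on its median, Utrn intron 1 passed in neither setting. Its limma adjusted p was 0.245 without +dox replicate 3 and 0.366 without both replicates numbered 3, and 0 of 4838 regions passed in either. When the values were centred and blocked together, 0 of 4 and 0% of all regions passed, although 572 of 4838 and 2 of the 4, Utrn intron 1 and the Sgca downstream region, had an unadjusted p under 0.05.

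**Figure D5:**
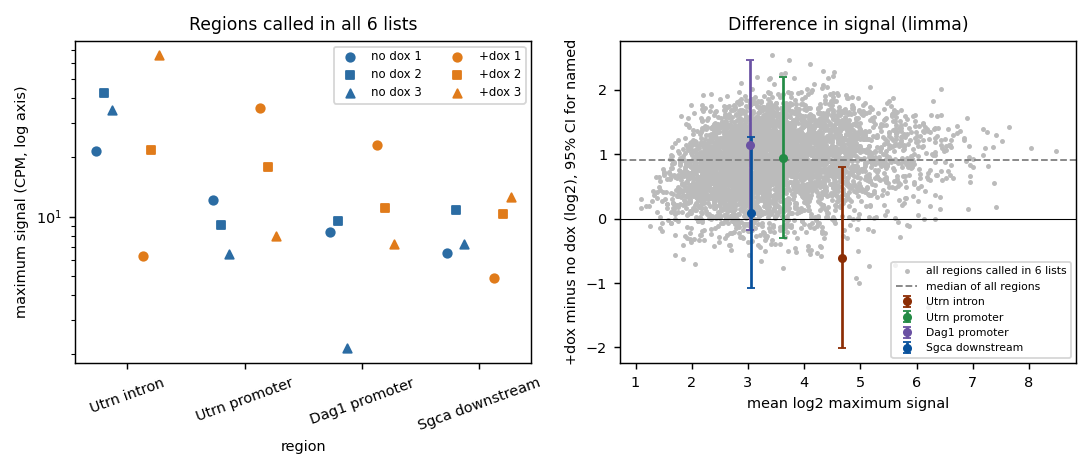
Left, maximum signal (CPM, log axis) of the 4 regions called in all 6 lists, 1 point per library, no dox in blue and +dox in orange. Right, the log2 difference, +dox minus no dox, against mean log2 maximum signal for 4838 regions in grey, with the 4 named regions and their 95% intervals and the median of 0.91 as a dashed line. All 4 intervals span 0, and the Utrn intron sits far below the median line.

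No gene of the 8 had more peaks per 10000 in every +dox list than in every no dox list, a pattern found in 4.03% of the 15749 protein-coding genes with a peak. The smallest p the design allows is 0.1, which 918 of these genes reached, and the lowest adjusted p was 1, so no gene could pass at this number of libraries.

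Of 30 further genes, chosen by role, 25 held a region, beside 71.8% of all protein-coding genes, 14 held a no dox consensus region (beside 35.5%) and 17 a +dox one (beside 48.4%), and 9 held a region called in all 6 lists, as 3 of the 8 did, beside 21.7% of all protein-coding genes. Among 9 other subunits, which include further sarcoglycans and beta-dystrobrevin, 2 held a no dox consensus region and 3 a +dox one. Among 5 extracellular partners the counts were 3 and 5, with 7 and 9 consensus regions at Hspg2, the gene of perlecan. Among 12 genes for the glycosylation of dystroglycan they were 6 and 6, and among 4 genes of other associated proteins 3 and 3, with 7 and 10 regions at Plec, the gene of plectin. 10 of the 30 genes held a +dox consensus region outside the no dox consensus (beside 25.6%), 1 held the converse, and in 0 of the 30 did the groups separate in peaks per 10000.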

How the data were processed

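The authors ran nf-core/cutandrun 3.2.2 against mm10 with blacklist removal and CPM scaling, and SEACR (relaxed) called the peaks of every library separately. Per the labels, deepTools was also used. Each deposited list gives 2 signal values per peak, total signal and maximum signal, in CPM. Such signal is no count, and relaxed calling has no common floor (lowest total signal 336.2 to 903.6). Maximum signals were whole multiples of 1 step, the worth of 1 alignment, in 100% of peaks, which gave the depths of 2868000 to 8030000 alignments. Between 94.8% and 99.2% of maxima were even multiples, and whether reads or fragments were counted is not given in the sources used here.

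Peaks were merged over the 6 lists where they overlapped or touched, and assigned to a gene by an overlap of 1 bp with its body plus 10 kb (GENCODE M21). A consensus needed 2 of 3 libraries. Regions called in all 6 lists were compared with limma 3.58.1 on log2 maximum signal, with Benjamini-Hochberg adjustment over all of them, and single genes by an exact two-sided permutation test over 20 assignments of the 6 libraries. The test planned for the summed peaks of the 8 genes is not given a p, since the genes were listed together by choice. Scripts used R 4.3.3, Python 3.11.15, NumPy 2.4.6, pandas 2.3.3, SciPy 1.17.1 and pysam 0.24.0, and were tested on simulated data. Replicates are biological replicates per the labels.

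Same-numbered libraries had correlations of deviations from group means of 0.485, 0.267 and 0.628 over 4838 regions. Across numbers, no dox 1 with +dox 2 gave 0.265 and no dox 2 with +dox 1 gave 0.219. Pairs of a replicate 3 with another number gave -0.56 to -0.321. Deviations cancel within a group at each region, so a positive value in 1 pair forces a negative one in another. The negative values therefore add nothing to the positive ones. The value for same-numbered libraries was highest for replicates 3, whereas the 0.267 of replicates 2 was level with the 0.265 across numbers. The pairing used in the replicate block was taken from the numbers. The rule for named regions was that all 8 genes are named and regions in at least 2 of 3 libraries of a group are described singly; the Utrn region at 58.2 kb, the single-call regions named and the 30-base sequences of regions in 5 lists were added after their values were seen. The members and gene lists were chosen with earlier results of these data known. Alternatives without both replicates 3, with ranks among common regions, or combining centring with pairing or left-out libraries were added after seeing the data.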

Additional observations from a re-analysis of the deposited data

How the results depend on the processing

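Of 131 recomputed values for 10 results, 97 kept their side of the threshold or moved by less than the spread between replicates (1 of them with the other sign, the difference in peaks per 10000 without +dox replicate 2), 16 moved, 11 reversed and 7 passed a test that the reported value did not pass. The 3 +dox regions outside the no dox consensus became 1 with lists of equal length, 1 in gene bodies without the flanks and 5 with a 3 of 3 rule, under which the no dox consensus held 5 regions and 1 of them lay outside the +dox consensus. +dox consensus regions numbered 7 without the flanks. Leaving out 1 library gave 5 to 8 no dox regions (5 without no dox replicate 1 or 2), 9 to 11 +dox regions, 2 to 6 +dox regions outside no dox (6 without no dox replicate 1 or 2) and 0 to 1 of the converse (1 without +dox replicate 2 or 3, and 1 without both replicates 3). The difference in peaks per 10000 ran from -0.168 (without +dox replicate 2) to 1.66, and was 0.745 with the replicate block. Regions called different in signal numbered 0 to 3 (3 without +dox replicate 3), 2 with the replicate block and 2 without both replicates 3. The block changed no other call. Sgca downstream reversed to -0.0219 in total signal, -0.83 when centred, with or without the block, -14.7 in percentiles, -22.1 in ranks among common regions and -0.25 without both replicates 3, and ran from -0.18 to 0.50 over single left-out libraries, below 0 without no dox replicate 1 (-0.06), +dox replicate 2 (-0.04) or +dox replicate 3 (-0.18). The Utrn promoter reversed to -1.43 in ranks among common regions, and Utrn intron 1 to 0.26 without +dox replicate 1 (range -1.44 to 0.26). The cause was not tested. The Dag1 promoter ran from 0.46 to 1.53 and the Utrn promoter from 0.42 to 1.5 over single left-out libraries. These ranges of signal differences are uncentred. Differences of single regions that were centred with libraries left out are not among the 131. There the Dag1 promoter fell to -0.25 without no dox replicate 3, and the Utrn promoter to -0.36 without +dox replicate 1. Depth was lowest in +dox replicate 1 (2868000 alignments), and a missing peak in a list says that none was called, not that binding was absent.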
